A study of Ipomoea batatas with 28 samples.

Results

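The 200 IDs described here had a lower mean in the first storage roots of sweet potato (Ipomoea batatas) than in the roots just before that stage, and this step made up at least 50% of their summed changes over the stages. They were chosen by a rule on measured values from 99697 rows, of which 75757 had at least 1 TPM in at least 4 libraries. TPM is a transcript abundance per length of transcript, scaled to the same total in every library. For each ID the stage means of log2(TPM + 1) were taken, S4 and S8 were averaged into 1 fibrous level, and the change was split into 5 steps from the fibrous level through S10, S12, S14 and S16 to S20. An ID was eligible if its S12 to S14 step was negative and made up at least 50% of the sum of the 5 absolute steps, and the 200 eligible IDs with the most negative S12 to S14 step were kept out of 464.

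The samples were wild type roots sampled at mid-length, with 4 libraries at each of 7 stages set by root diameter. The fibrous roots were S4, of 1.5 mm, and S8, of 2 mm. The pencil roots were S10, of 3.5 mm, and S12, of 5 mm. The storage roots measured 10 mm in S14, 15 mm in S16 and 25 mm in S20. No treatment separated the groups, and the cultivar, the plant age and whether a library held 1 plant or several are not given in the sources used here. The labels call the 4 libraries of a stage biological replicates.

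A sweet potato storage root is a root that thickens. In textbook accounts, a fibrous root stays thin and its central cylinder lignifies, while in a root that becomes a storage root the vascular cambium and additional cambia divide and produce parenchyma cells that fill with starch and with storage proteins such as sporamin. A pencil root is a partly thickened root, usually with a lignified centre. The step from S12 to S14 is thus the first one between a pencil and a storage root by label.

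None of the IDs could be given a gene name, as 0 of the 99697 IDs matched the reference table used here, so nothing is said of what the members encode. Of the members, 133 carried a G and TU number and 67 (33.5%) the prefix MSTRG, against 24.6% with that prefix among all IDs tested. The 133 rows carried 132 distinct G numbers, and 1 G number held 2 members. No sequence is shown, since the deposited table holds none.

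Because the rule used the stage means of all 28 libraries, the profile of the members is given as a description and without a test. The median over members of the mean TPM was 6.39 at S4, 5.72 at S8, 6.50 at S10 and 6.05 at S12. In storage roots S14 had 0.865, S16 had 1.04 and S20 had 0.384. The typical member was therefore as high in pencil as in fibrous roots, and low in all storage roots. In these bulk samples, fewer cells of a type and less RNA per cell cannot be told apart.

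**Figure D1:**
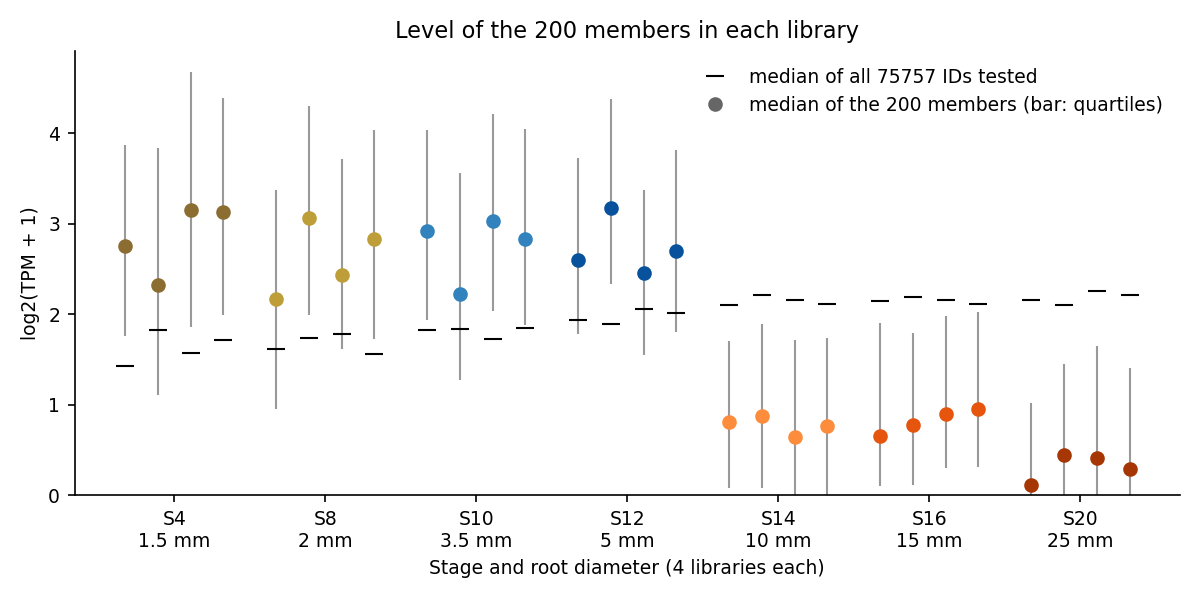
Level of the members in each of the 28 libraries as log2(TPM + 1), by stage and root diameter. Points are the median over the 200 members, grey bars run between their quartiles, and black dashes are the median of all 75757 IDs tested. The member medians lie above the dashes in the fibrous and pencil libraries and below them in the storage libraries, a contrast that the choice of members fixes.

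The summed level of the 200 members showed the same break, which follows in part from the choice of members by these stage means. Their TPM added up to 3949 ± 1476 at S4, 3092 ± 949 at S8, 3327 ± 655 at S10 and 3257 ± 594 at S12 (SD, n = 4 each). S14 had 738 ± 133 TPM, S16 had 853 ± 118 TPM and S20 had 683 ± 148 TPM (SD, n = 4 each). The highest storage library, at 972 TPM, lay below the lowest library of the thinner roots, at 1861 TPM. Few members carried much of the sum. The 10 most abundant held 43.9% of it at S12 and the most abundant 11.9%.

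Most members were of low or moderate abundance. At S12, 85 had a mean under 5 TPM, 68 reached 10 TPM, 9 reached 50 TPM and 4 reached 100 TPM, with a range of 1.50 to 387 TPM. At S14, 18 members were listed at 0 in all 4 libraries, and 10 were listed at 0 in all 12 storage libraries. Depth was unknown, so a listed 0 need not mean absence. On the other side, 101 members still had at least 1 TPM in at least 4 storage libraries.

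The size of the step varied among the members. The S14 minus S12 difference of stage means ran from -4.35 to -1.11 on the log2 scale, with a median of -1.60 and quartiles of -2.05 and -1.29, against a median of 0.10 for all IDs tested. The ID just outside the size limit had a step of -1.11 as well (-1.1083, against -1.1102 for the last member). The 50% limit removed many more. Of 2881 IDs with a step at or past that of the last member, 2681 had other steps too large to be eligible, the nearest at 49.97%, while the lowest members stood at the limit of 50%. The median share was 55.7%, and 54 members reached 60%.

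Every S14 library lay below every S12 library for 138 members and not for 62. Among all IDs tested, 4.63% showed this. With limma, a moderated linear model fitted across all IDs, 125 members were called lower at S14 (Benjamini-Hochberg adjusted p under 0.05 and a log2 difference of at least 1 in size), where 1.75% of all IDs were. Without S12 replicate 2 limma called 72 members lower, where 0.895% of all IDs were. These counts use the contrast by which the members were chosen, so they say nothing further about the members. A stricter separation, with each of the 16 fibrous and pencil libraries above each of the 12 storage libraries, held for 44 members, against 0.531% of all IDs tested. The rule had used these stages too.

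Of the 200, 43 members met the limits set for naming an ID (a mean of at least 10 TPM at S12, no overlap between S12 and S14, and no S12 library with over 50% of the S12 sum). Without gene names, only the one with the largest step and the one with the highest S12 level are named.

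MSTRG.73445 had the largest step. It had 29.5, 17.0, 10.8 and 7.49 TPM in the S14 libraries, against 208, 451, 449.8 and 227 TPM in the S12 libraries. The lowest S12 value was several times the highest S14 value, and the difference was -4.35 on the log2 scale (limma SE 0.93). The thinner roots were far less even. MSTRG.73445 had 319, 28.3, 1129 and 508 TPM at S4, 16.2, 316, 133 and 243 TPM at S8, and 138, 73.8, 191 and 358 TPM at S10. A single library of S4 and one of S8 thus reached down to storage root levels, which were 22.8, 6.68, 65.3 and 20.5 TPM at S16 and 0.33, 10.1, 1.49 and 2.93 TPM at S20. Its S12 to S14 step made up 50.2% of its summed steps, so it was close to the limit.

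The member ranked 2 by step followed MSTRG.73445 closely up to S16. It had 6.72, 4.14, 1.84 and 1.71 TPM at S14, against 51.6, 117, 110 and 64.2 TPM at S12. Over the 24 libraries from S4 to S16, the ratio of the TPM of MSTRG.73445 to that of this member stayed between 2.90 and 5.89, with a median of 4.06, although both levels varied over more than an order of magnitude. The ratio did not stay in this range at S20, where levels were low. There this member had 0, 1.61, 1.18 and 1.56 TPM, against 0.33, 10.1, 1.49 and 2.93 TPM for MSTRG.73445. Their deviations from the stage means correlated with r = 0.97 over 28 libraries. Sweet potato is a hexaploid, and whether these rows share reads was not tested.

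G1240_TU2064, ranked 145 by step, was the most abundant member at S12. It had 265, 175, 115 and 108 TPM in the S14 libraries, against 395, 452, 348 and 353 TPM in the S12 libraries. The groups did not overlap, and the difference was -1.31 on the log2 scale (limma SE 0.34). G1240_TU2064 then stayed near its S14 level, with 153, 154, 119 and 192 TPM at S16 and 118, 174, 202 and 155 TPM at S20. Earlier it had ranged from 133 to 456 TPM at S4, from 118 to 388 TPM at S8 and from 276 to 387 TPM at S10, so its lowest fibrous libraries lay within the storage range. Unlike the member ranked 1, it kept a mean of 162 ± 35.3 TPM (SD, n = 4) at S20. The other row at its G number was not called lower, with a mean of 89.0 TPM at S14, against 77.4 TPM at S12. Its log2 difference was 0.27 (limma SE 0.81), and its mean was 21.8 TPM at S4 and 126 TPM at S20. Summed over the G number, the S14 minus S12 difference was -0.96. G1240_TU2064 held 65.1% of that sum at S14, against 83.3% at S12.

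Members of other ranks, picked after their values were seen, show how varied the profiles were. The member ranked 3 had 0, 0, 0 and 3.09 TPM at S14, against 40.5, 17.2, 17.4 and 12.5 TPM at S12. It returned in part to 0, 5.30, 10.2 and 2.49 TPM at S20, and it had been at 2.74, 0, 0 and 13.99 TPM at S4. At S8 it had 4.89, 13.6, 9.53 and 4.79 TPM, and at S10 11.5, 5.12, 3.18 and 3.56 TPM. This ID thus had its highest stage mean at S12, although a single S4 library and a single S8 library lay above the lowest S12 library.

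The member ranked 6 was mostly seen in the pencil roots. It was listed at 0 in all 12 storage libraries and had 9.06, 12.4, 7.32 and 13.6 TPM at S12. At S10 it was at 2.72, 0, 0 and 5.21 TPM, and in fibrous roots it was at 0 in every library but 1, which had 3.45 TPM.

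The member ranked 5 showed the opposite start. It had 0.92, 0.56, 0 and 0 TPM at S14, against 36.4, 92.8, 0 and 20.9 TPM at S12, so 1 S12 library was already at 0 and the groups overlapped. At S8 it had stood at 121 ± 49.4 TPM and at S10 at 96.3 ± 51.8 TPM (SD, n = 4 each). It was listed at 0 in every S16 and S20 library.

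**Figure D2:**
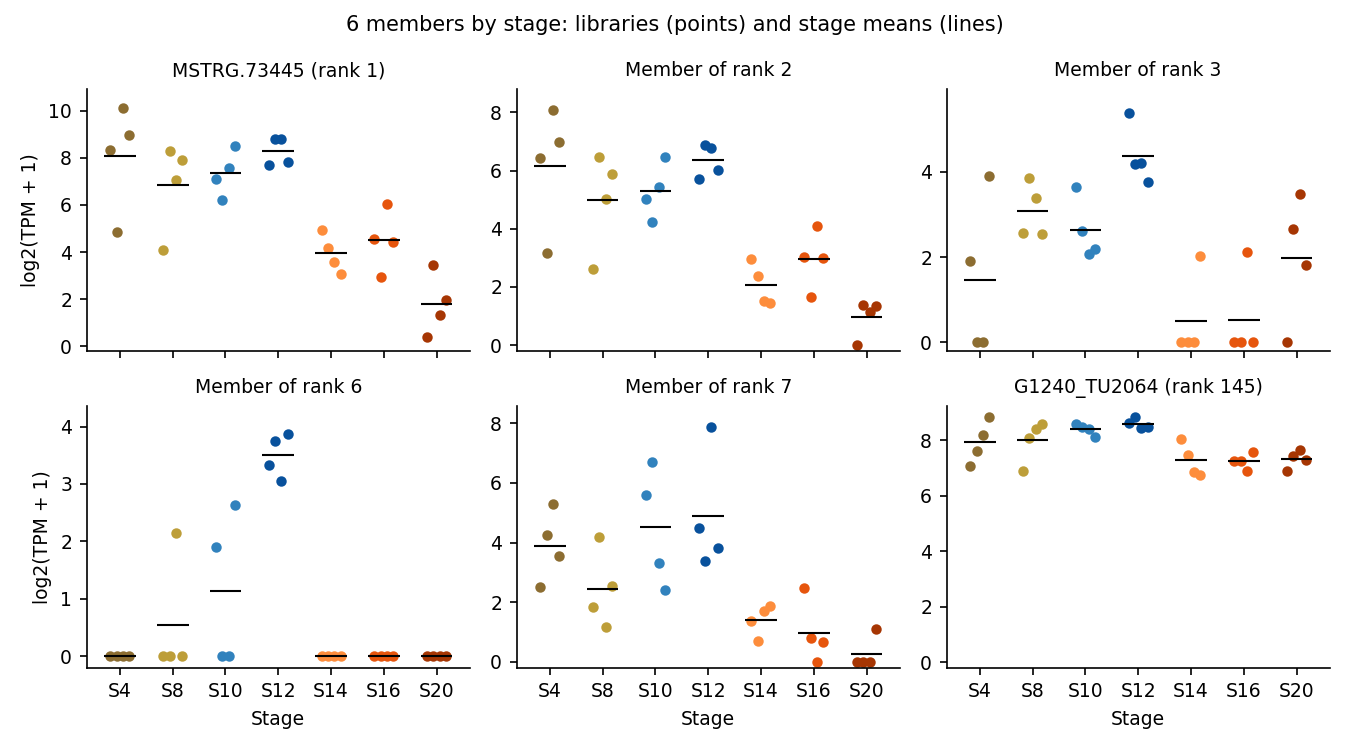
Levels of 6 members as log2(TPM + 1) in each library (points) with stage means (lines), by stage. The panels show the members ranked 1, 2, 3, 6, 7 and 145. The S14 points lie below the S12 points in each of these 6 panels, and the levels before S12 and after S14 differ widely between the members.

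The S12 mean lay within 0.5 log2 units of the fibrous mean for 102 members. It lay within 1 unit of it for 167, at least 1 unit above it for 18 and at least 1 unit below it for 15. In the 18 raised members the median TPM was 2.84 at S4, 1.77 at S8, 3.45 at S10 and 8.64 at S12, against storage root medians of 0.515 in S14, 0.609 in S16 and 0.195 in S20. In the 15 lowered members it was 17.3, 22.2, 15.1 and 7.09 TPM up to S12, and 0.527, 0.585 and 0.147 TPM in the storage stages. The median step at S14 was -2.52 in the raised, -1.49 in those within 1 unit and -2.24 in the lowered members. These classes were split by the S12 level itself, and a member that had moved before S12 needed a larger step to reach 50% of its summed steps, so these values only describe the split. The highest of the 7 stage means was at S4 for 68 members, at S12 for 61, at S8 for 44 and at S10 for 27.

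After S14 most members stayed near their S14 level, which the rule favours because it limited the size of the other steps. With a median of 0.865 TPM at S14, many members also had little room to fall. The values after S14 therefore only describe the members. From S14 to S20 the mean stayed within 0.5 log2 units for 132 members, was lower by at least 0.5 for 51 and higher by at least 0.5 for 17. The median of the S14 to S16 step was 0.07 and that of the S16 to S20 step was -0.26, with 160 members negative in the last step. By S20 4 members had regained at least 50% of their S12 to S14 difference, and the largest share regained was 77.9%. The lowest stage mean was at S20 alone for 123 members and at S14 alone for 55.

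The step was also measured in libraries left out of the stage means used for the choice. The rule was applied again without 1 S12 and 1 S14 library, and the 200 IDs chosen in this way were measured in the left-out pair, for all 16 pairs. The filter of at least 1 TPM in at least 4 libraries was kept from all 28 libraries. An ID could thus pass it through a left-out library, so the left-out values are not fully independent of the choice. In the left-out pairs the median S14 minus S12 difference of the chosen IDs averaged -0.97 on the log2 scale, with a range of -1.23 to -0.70. In the libraries used to choose them it averaged -1.83. All IDs tested had medians between 0.00 and 0.21 in the same pairs. By this median the chosen IDs were thus lower at S14 in each of the 16 pairs, by less than in the libraries used to choose them. Of the 3200 left-out values, 77.5% were negative, against 42.1% of all IDs tested. A difference of at least 1 log2 unit was found for 1540 of the 3200 (48.1%), against 9.62% of all IDs tested. The 16 pairs share libraries and are not independent, so no p is given.

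**Figure D3:**
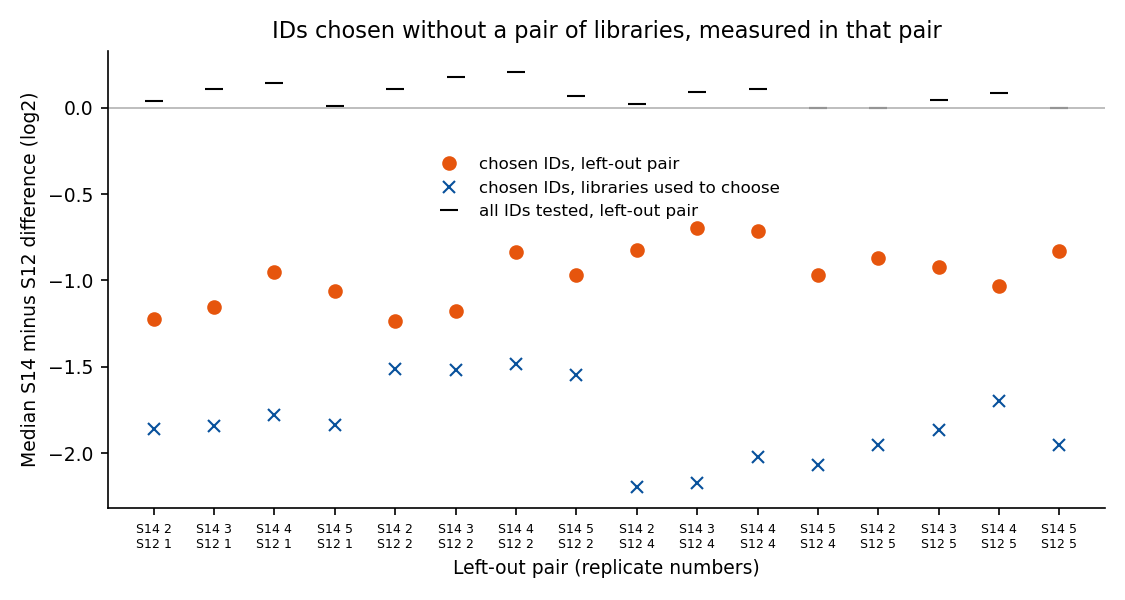
Median S14 minus S12 difference (log2) for IDs chosen without 1 S12 and 1 S14 library, by the left-out pair. The filter on TPM was kept from all 28 libraries. Orange points are the chosen IDs in the left-out pair, blue crosses the same IDs in the libraries used to choose them, and black dashes all 75757 IDs tested in the left-out pair. The orange points lie between -1.23 and -0.70, all below the dashes and all above the crosses.

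With only 1 library left out, the median in a left-out S14 library was -1.55, -1.48, -1.43 and -1.42 (replicates 2, 3, 4 and 5), against the mean of all S12 libraries. The mean of the S14 libraries minus a left-out S12 library gave -1.26, -1.28, -1.03 and -1.18 (replicates 1, 2, 4 and 5). Each of the 4 left-out S12 libraries thus gave a smaller difference than each of the 4 left-out S14 libraries. These values still use the other stage's libraries for the choice, so they are less strict than the pairs. Here too the filter was kept from all 28 libraries.

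Single S12 libraries weighed on the choice. S12 replicate 2 was the highest of the 4 S12 libraries for 103 members, against 44 for replicate 5, 35 for replicate 4 and 18 for replicate 1. Among all IDs tested, replicate 2 was the highest for 21.3%. In 61 members a single S12 library held more than 50% of the S12 sum, and in 42 of these it was replicate 2. Without this library 127 of the 200 members were chosen again, and without S12 replicate 4, in which the members had their lowest median at S12, 116 were. Over the 28 libraries left out in turn, 23 members were chosen every time. The member ranked 7 shows the dependence on a library. It had 1.58, 0.61, 2.24 and 2.66 TPM at S14, against 21.4, 9.40, 235 and 12.9 TPM at S12, so 1 library gave most of the S12 mean, although the groups did not overlap.

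S12 replicate 2 was also the S12 library nearest to fibrous roots. On a scale where the fibrous mean is 0% and the storage mean 100%, the median over 25024 IDs that were not members and differed by at least 1 log2 unit between these classes was 46.3% in replicate 2. It was 56.3% in replicate 1, 60.9% in replicate 5 and 75.3% in replicate 4. The members deviated from their S12 mean by 0.45, -0.12, -0.06 and -0.26 log2 units on average in the same 4 libraries. By this mean deviation the library nearest to fibrous roots was thus highest for the members and the farthest was lowest. The part of this position in the membership was not tested.

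Deviations from the stage means did not enter the rule as such, although a choice on stage means of these libraries can favour IDs with a shared deviation. The mean correlation between members of their deviations from the stage means was 0.14 over 28 libraries, against 0.03 over all IDs tested, with quartiles of -0.05 and 0.33 over the 19900 member pairs. The libraries of each correlation share their composition, and these values are a description only. A correlation of at least 0.9 linked 15 pairs, which was 0.0754% of the member pairs, against 0.0102% of all pairs of IDs tested. These pairs joined 26 members into 12 groups of at most 3, and 19 of the 26 were highest in S12 replicate 2.

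In each stage of the thinner roots the library numbered 2 had the largest mean deviation of the members in size, but not always the same sign. The mean deviation of the members from their stage mean was -0.49 log2 units in S4 replicate 2, -0.49 in S8 replicate 2 and -0.46 in S10 replicate 2. In S12 replicate 2 it was 0.45. In these 4 libraries all IDs tested deviated by 0.13, -0.05, 0.01 and -0.06, so the members did not follow the bulk of the IDs. The other fibrous and pencil libraries had member deviations from -0.26 (S12 replicate 4) to 0.38 (S8 replicate 3). In the 12 storage libraries the member deviation stayed between -0.19 and 0.15. Without the 7 libraries numbered 2 the mean correlation between members was 0.05, against 0.02 over all IDs, and without S12 replicate 2 alone it was 0.12. S10 replicate 2 stood at 38.7% on the scale between fibrous and storage roots, and the other S10 libraries between 19.0% and 29.6%. S4 replicate 2 was also above the others of its stage, at 3.6% against -7.9% to 1.3%. S8 replicate 2, at 0.6%, lay within the range of the other S8 libraries, -5.7% to 6.3%. A link between this position and the member deviation was not tested. The replicate numbers are those of the sample descriptions. The sample titles number the libraries of a stage anew, so S8 replicate 2 and S14 replicate 2 carry another number there. Whether number 2 marks a shared plant, plot or day is not given in the labels.

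**Figure D4:**
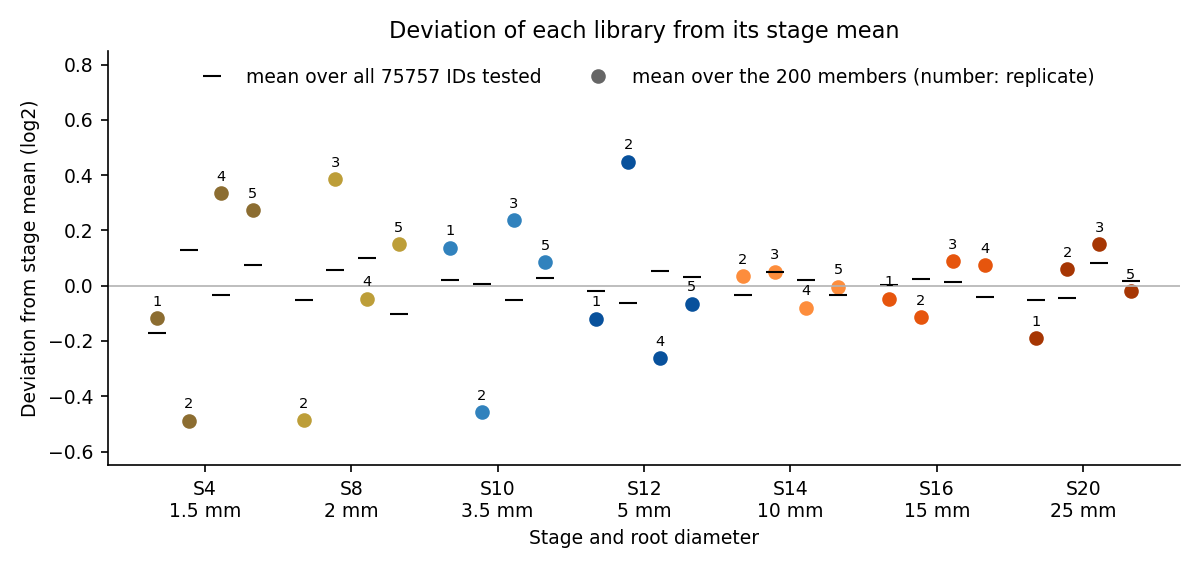
Mean deviation of each library from its stage mean (log2) by stage and root diameter. Points are means over the 200 members with the replicate number above, and black dashes are means over all 75757 IDs tested. Replicate 2 lies near -0.5 at S4, S8 and S10 and at 0.45 at S12. The storage libraries, in which many members were near 0, lie between -0.19 and 0.15.

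Other rows at the same G number gave a measure that the rule had not used directly. Of the 132 G numbers of members, 63 (47.7%) had more than 1 row in the table, against 34.9% of all G numbers. They carried 105 further rows, of which 83 passed the filter of 1 TPM in 4 libraries. These 83 rows had a median S14 minus S12 difference of -0.67 log2 units (quartiles -1.26 and -0.18), against 0.10 for all IDs tested. Of these, 70 (84.3%) had a negative difference, against 41.7% of all IDs.

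With limma, 17 of the 83 rows (20.5%) were called lower at S14, against 1.75% of all IDs tested, and 0 were called higher, against 3.37%. At an unadjusted p under 0.05 the counts were 39 lower and 0 higher, against 7.08% and 15.3% of all IDs tested. The 17 rows came from 12 of 54 G numbers, so they are not independent of each other, and rows of 1 G number may share reads with the member. The row with the largest difference had a mean of 4.64 TPM at S14, against 35.6 TPM at S12, a log2 difference of -2.57 (SE 0.48, limma adjusted p = 0.00201). The count depended on S12 replicate 2. Without that library 6 of 83 were called lower, against 0.895% of all IDs, and without S12 replicate 1 it was 10.

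**Figure D5:**
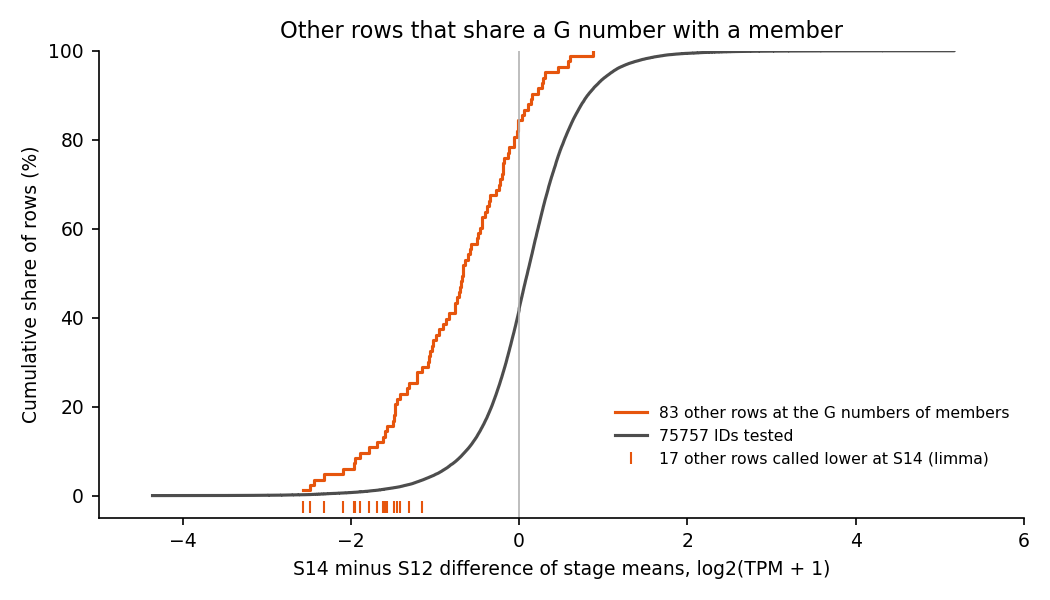
Cumulative share of rows (%) by their S14 minus S12 difference of stage means on the log2(TPM + 1) scale. The orange line shows the 83 tested rows that share a G number with a member, the grey line all 75757 IDs tested, and the ticks the 17 rows called lower at S14 by limma. The orange line lies left of the grey one, with medians of -0.67 and 0.10.

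Summed over all rows of a G number, the level was lower at S14 in each of the 63 cases, and by at least 1 log2 unit in 46. The sum includes the member and so follows from the choice in part. The other rows alone, summed, were lower in 51 of the 63, by at least 1 unit in 19, higher in 10 and equal in 2. The members held a median of 45.9% of the TPM of their G number at S14, against 73.1% at S12, and a smaller share at S14 in 53 of 63. A smaller share at S14 is favoured by the choice of members, so it is given as a description. At the G number of the member ranked 5, the other rows summed to 42.9 TPM at S14, against 102 TPM at S12, while the member's share was 0.855% at S14, against 26.9% at S12. The reverse was seen at the G number of the member ranked 44, where the other rows had 7.48 TPM at S14, against 4.07 TPM at S12, and the member 1.71 TPM, against 11.2 TPM. These 2 cases were picked after their values were seen.

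Rows next to a member in the numbering had medians closer to that of all IDs. The 294 tested rows with the G number just before or after that of a member had a median S14 minus S12 difference of 0.05, with 3 called lower and 15 higher (limma). For the 56 rows next to a MSTRG member it was 0.01, with 5 called lower and 1 higher. Among all IDs 1.75% were called lower and 3.37% higher. The share called lower was thus above that of all IDs for the rows next to a MSTRG member, and below it for those next to a G number. This difference was not tested. Whether neighbouring numbers are neighbours in the genome is not given in the sources used here.

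Fewer IDs met the rule than its mirror image. With the signs reversed, the rule found 1893 eligible IDs that switched up between S12 and S14, against the 464 that switched down. The gap depended on the scaling, with 847 down and 1109 up after median-of-ratios scaling and 906 down and 1265 up after quantile normalization. The difference was not tested. In the deposited TPM more IDs were eligible upward than downward at each of the other 4 steps as well, for example 3709 up and 1151 down from the fibrous level to S10. This order depended on the scaling too. After median-of-ratios scaling it reversed for that step, with 2516 down and 1907 up. After quantile normalization it reversed from S10 to S12, with 708 down and 585 up. In the other steps and scalings more IDs were eligible upward. The median step of the 200 members was -1.67 after quantile normalization and -1.59 when scaled by the median of ratios.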

How the data were processed

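RNA-seq of 28 root libraries was used. The authors deposited 1 table of TPM values with 1 column per library. Per the submitters' processing notes, TopHat2 2.0.0 and RSEM 1.3.1 were among the tools. The genome build, annotation and role of each tool are not given in the sources used here. Columns were assigned to samples by the description in the labels, whose replicate numbers are used. The sample titles number some of the libraries differently. TPM keeps no depth, so precision was judged from the spread between replicates.

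The members and the lists were chosen with earlier results of these data known. Values were analysed as log2(TPM + 1), a scale that understates the change of low IDs. The contrast of S14 with S12 came from limma 3.58.1 in R 4.3.3, fitted to 7 stage means with a trended prior over 75757 IDs. Python 3.11.15, NumPy 2.4.6, pandas 2.3.3 and Matplotlib 3.10.9 were used otherwise. The fit and the rule were tested on simulated data. Deviations are distances of a library from its stage mean, and correlations are Pearson's.

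The alternatives were pseudocounts of 0.1 and 5, no filter and one of 5 TPM, quantile normalization, median-of-ratios scaling, shares of 40% and 60%, stage medians, no fold threshold, a fit to 2 stages, a replicate block and each library left out. Chosen after seeing the data were the left-out pairs, the removal of the libraries numbered 2, the rows next in the numbering, the position between fibrous and storage roots and the members picked by rank. The naming rule also allowed 2 other rows called higher at S14 and found 0. No gene list or marker list could be used, for want of gene names.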

Additional observations from a re-analysis of the deposited data

Results flagged for a closer look

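Of 72 groups of 4 libraries examined, 6 had a library far from the other 3 by Dixon's test. For normally distributed values this test flags about 1 in 20 groups by chance. All 6 flags were in members of low or uneven level. The member ranked 3 had 3.09 TPM in S14 replicate 5 and 3.32 TPM in S16 replicate 3, and 0 in the other libraries of those stages. The member ranked 6 had 3.45 TPM in S8 replicate 4 and 0 in the other S8 libraries. The member ranked 7 had 235 TPM in S12 replicate 4, with 9.40 to 21.4 TPM in the others, as well as 4.56 TPM in S16 replicate 1 and 1.15 TPM in S20 replicate 5. A group with 0 in all but 1 library is always flagged, so the chance rate does not apply to it. This holds for the flagged groups of the members ranked 3 and 6 and for S20 in the member ranked 7.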

How the results depend on the processing

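Of the 200 members, 193 were chosen again with no filter, 98 with a pseudocount of 0.1, 121 with 5, 133 with median-of-ratios scaling, 99 with stage medians, and 54 with a share of either 40% or 60%. It was 147 with a filter of 5 TPM, 144 with quantile normalization, 124 under all 3 scalings, and 116 to 184 with 1 library left out. Only 122 IDs reached a share of 60%, while at 40% larger steps displaced most members.

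The left-out differences kept their sign. For left-out S14 libraries the mean of the medians was -1.47, and -2.47 and -0.96 with pseudocounts of 0.1 and 5, -1.56 after scaling by the median of ratios and -1.70 after quantile normalization. For S12 libraries it was -1.19, and -2.06, -0.81, -1.37 and -1.45 in the same order. For left-out pairs it was -0.97, and -1.21, -0.72, -1.10 and -1.21.

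Over all IDs, limma called 3880 between S14 and S12, against 1410 with a pseudocount of 5, 1894 in a fit to these stages, 6051 with no fold threshold, and 2186 to 4823 with 1 library left out. Of the members, 125 were called lower, against 51 with a pseudocount of 5, 75 in the fit to these stages and 72 to 117 with 1 library left out. Of the other rows at the members' G numbers, 17 were called lower, against 11 with a pseudocount of 5, 11 in the fit to S12 and S14, and 6 to 19 with 1 library left out. None was called higher in any of these fits (0 to 0 with 1 library left out). With the replicate block 3701 IDs and 20 other rows lower were called. The number did not pair the S12 and S14 libraries by the limit used (every pair above 0.1), as deviations of same-numbered libraries of these stages correlated at -0.05, -0.21 and -0.18, and 0 of 3 S12 libraries correlated best with its own number.

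The mean correlation between members was 0.14, and 0.12 and 0.15 with pseudocounts of 0.1 and 5, 0.16 with median-of-ratios scaling, 0.15 with quantile normalization, 0.12 to 0.15 with 1 library left out and 0.0495 without the libraries numbered 2. The cause of these changes was not tested. Depth was unknown, so levels near 0 and the folds built on them are the least certain.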
